A study of Mus musculus with 6 samples.

Results

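The genes described here are 10 members of the Nrf2 antioxidant pathway, picked by symbol from the 24940 genes of the deposited expression table, and all 10 were found there. Of these, 4 are regulators, namely Nfe2l2, Keap1, Bach1 and Mafg, and 6 are target genes, namely Nqo1, Hmox1, Txnrd1, Txn1, Srxn1 and Prdx1. All 10 passed the filter on low values, which left 11595 genes to test.

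Nrf2, encoded by Nfe2l2, is a transcription factor of the cap'n'collar family that raises antioxidant and detoxifying genes. In unstressed cells the sensor protein KEAP1, which carries reactive cysteines, binds Nrf2 and hands it to a ubiquitin ligase for degradation, and electrophiles or oxidants that modify KEAP1 let Nrf2 build up. Nrf2 acts as a dimer with a small MAF protein such as MAFG on antioxidant response elements, and BACH1, which heme releases from DNA, occupies many of the same elements as a repressor. Since much of this control acts on proteins, mRNA levels of the regulators do not measure the activity of the pathway. In macrophages the pathway is known for heme breakdown and for limiting peroxides, and peroxides take part in the signal by which RANKL makes osteoclasts.

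RNA was sequenced from bone marrow-derived macrophages (BMMs), which are primary mouse cells grown out of marrow with M-CSF and used as osteoclast precursors. The 3 conditions, with 2 libraries each, were no RANKL (-R), RANKL (+R) and RANKL with LE (R+LE), where RANKL is the cytokine that drives osteoclast formation and LE is a methanol extract of the leaves of Abeliophyllum distichum, a mixture of compounds. Culture lasted 3 days with 30 ng/mL M-CSF in every condition, with 100 ng/mL RANKL in +R and R+LE and with 10 μg/mL LE in R+LE. C57BL/6 mice, 6 to 8 weeks old, are named in the sample labels, whereas the methods of the study name the ICR strain, and no genetic change is described for either. None of the 6 libraries is labelled as a vehicle control for LE or as LE without RANKL. Nothing states whether the 2 libraries of a condition came from separate mice or cultures, so p-values measure the spread between these libraries, which may be technical.

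Expression is given in RPKM, that is, read counts divided by transcript length and by the mapped reads of the library, so levels can be compared between genes as well as between libraries. Between 29390205 and 34846390 mapped reads per library were recovered from these values, and between 119 and 43492 reads lay on a member in a library. Between 74.2% and 80.7% of mapped reads fell on genes, with both extremes among the 4 libraries given RANKL. Rn45s, the ribosomal RNA precursor, took 4.97% and 6.83% of gene reads in the -R libraries and 10.9% to 13.5% in those 4, so this share separated -R from the rest. The cells carried macrophage markers in all 6 libraries, with a summed level of a list of 6 genes between 6443 and 7056 RPKM in -R, between 2605 and 3349 RPKM in +R, and between 3629 and 4043 RPKM in R+LE. A list of 6 osteoclast markers summed to 40.0 and 41.1 RPKM in -R, to between 1680 and 1904 RPKM in +R, and to between 293 and 333 RPKM in R+LE. All 6 osteoclast markers rose with RANKL and fell with LE, and 5 of 6 macrophage markers fell with RANKL and none passed the test with LE. A list of 4 stromal genes summed to between 13.2 and 15.2 RPKM in -R and to between 9.47 and 13.4 RPKM in +R. For R+LE the stromal sum was between 7.34 and 8.18 RPKM. Of its 2 tested genes, none passed with RANKL and 1 fell with LE. Both fell when R+LE was set against -R. The B cell, T cell, erythroid and mast cell lists each summed to at most 0.936 RPKM in any library. The mast cell genes Cpa3, Mcpt4 and Tpsb2 and the T cell genes Cd3e and Cd3g had 3 reads or fewer in every library. A list of 5 neutrophil genes summed to between 15.2 and 16.9 RPKM in -R, to 0.66 and 0.816 RPKM in +R, and to between 0.509 and 2.53 RPKM in R+LE, and both of its tested genes fell with RANKL. The levels of the macrophage, osteoclast and neutrophil lists therefore moved with the conditions, and that of the stromal list was lowest with LE. In bulk RNA fewer cells of a type cannot be told apart from less RNA per cell. The part of these shifts in the results below was not tested.

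Antioxidant response elements share a core that can be written as TGACNNNGC or TGAGNNNGC, and these letters were searched on both strands in the 250 bases before each gene start. RefSeq windows of the GRCm38.p6 build, which is mm10, were found for 9 of the 10 members (11 windows), and not for Hmox1. At least 1 of these cores was present in windows of 5 of the 9 members, Nfe2l2, Mafg, Txnrd1, Srxn1 and Prdx1, and in 23% of all 32851 windows. TGACNNNGC alone was in 10.2% and TGAGNNNGC alone in 14.4% of all windows. The sequences below are the windows of 4 of the targets that rose with LE, shown to let the letters be compared with the response, each 5′ to 3′ on the strand of the gene, with core matches in capitals.

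Prdx1 (chr4:116685349-116685598, plus strand): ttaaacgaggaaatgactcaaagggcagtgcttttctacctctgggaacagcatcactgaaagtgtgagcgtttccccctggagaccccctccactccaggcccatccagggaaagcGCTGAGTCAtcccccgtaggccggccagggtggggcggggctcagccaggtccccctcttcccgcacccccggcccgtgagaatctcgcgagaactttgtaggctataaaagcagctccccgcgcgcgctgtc
Srxn1 (chr2:152105274-152105523, plus strand): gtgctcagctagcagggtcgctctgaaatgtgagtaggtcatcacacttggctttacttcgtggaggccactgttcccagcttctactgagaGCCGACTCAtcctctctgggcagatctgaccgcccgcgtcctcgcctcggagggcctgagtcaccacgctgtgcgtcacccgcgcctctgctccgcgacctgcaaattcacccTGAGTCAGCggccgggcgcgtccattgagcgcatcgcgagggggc
Txnrd1 (chr10:82858956-82859205, plus strand): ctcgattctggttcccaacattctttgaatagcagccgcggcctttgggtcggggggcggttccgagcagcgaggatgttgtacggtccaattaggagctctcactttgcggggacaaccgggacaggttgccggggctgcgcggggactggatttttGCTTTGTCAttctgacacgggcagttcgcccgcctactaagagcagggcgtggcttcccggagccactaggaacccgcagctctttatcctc
Nqo1 (chr8:107403206-107403455, minus strand): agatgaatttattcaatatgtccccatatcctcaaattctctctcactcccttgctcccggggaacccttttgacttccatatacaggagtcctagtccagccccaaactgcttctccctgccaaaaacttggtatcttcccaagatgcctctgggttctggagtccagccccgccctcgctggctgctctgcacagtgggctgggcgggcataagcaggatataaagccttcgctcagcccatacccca

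The Prdx1 window held 1 match on the opposite strand, 133 to 125 bases before the start. The Srxn1 window held 2, at 158 to 150 bases on the opposite strand and at 45 to 37 bases on the strand of the gene. The Txnrd1 window, which precedes the start of the transcript in the expression table, held 1 on the opposite strand at 92 to 84 bases, and the windows of the other 2 Txnrd1 starts held none. No match was present in the Nqo1 window. A match is a description of the letters and not a bound site.

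The first question was how the pathway stood in osteoclast precursors before and after RANKL. With RANKL, 6 of the 10 members fell and none rose at an adjusted p-value below 0.05, against 21.5% of all tested genes that fell and 23.9% that rose. The 6 were Hmox1, Prdx1, Srxn1, Mafg, Txnrd1 and Nfe2l2. Tests were made with limma on log2(RPKM + 0.5) over all 6 libraries with Benjamini-Hochberg adjustment, and the pseudocount makes fold changes of weakly expressed genes too small. The median log2 fold change of the 10 members was -0.52, against 0.05 for all tested genes.

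**Figure D1:**
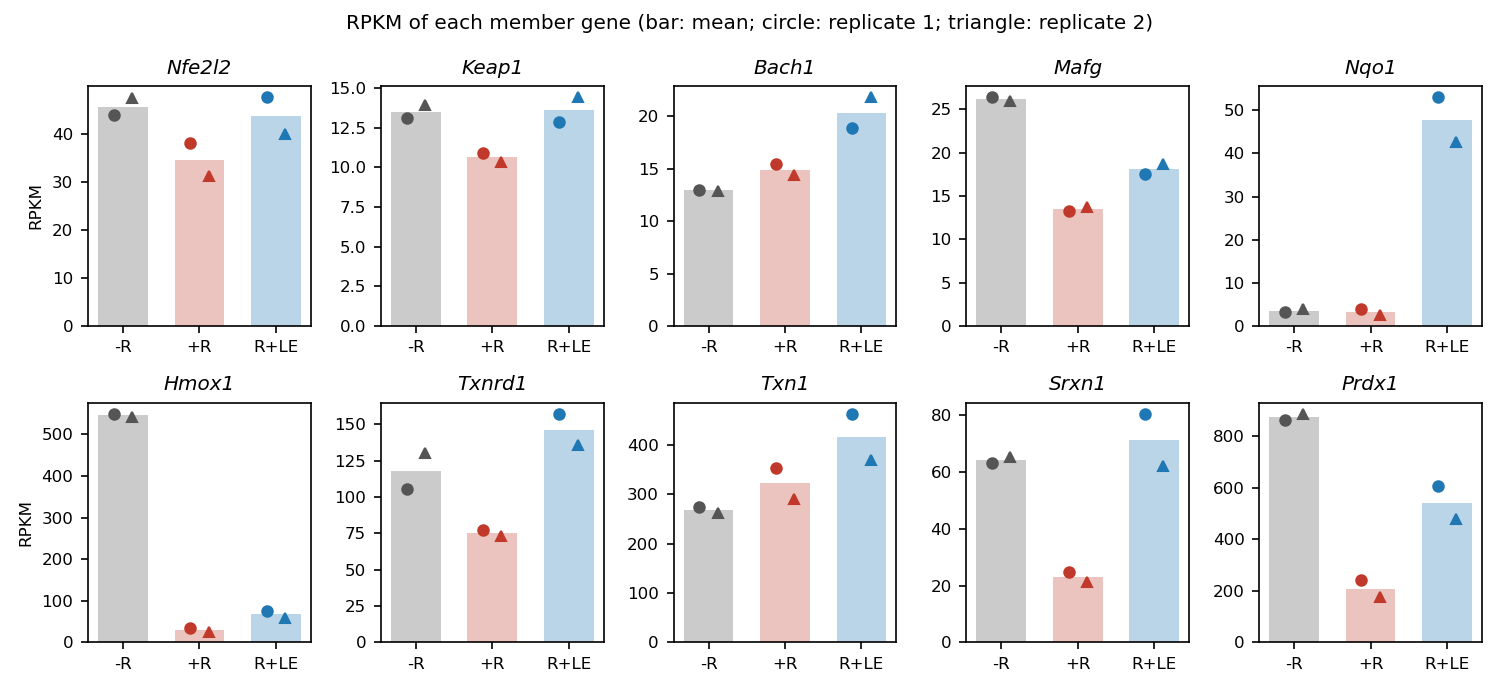
RPKM (y axis, linear from 0, separate scale for each gene) of the 10 members in -R, +R and R+LE (x axis), with bars for the mean of 2 libraries, circles for replicate 1 and triangles for replicate 2. Nqo1 is between 2.51 and 3.87 RPKM in the 4 libraries without LE and at 42.7 and 53.0 RPKM with LE, whereas Hmox1 is at 549.1 and 542.4 RPKM in -R and at most at 76.5 RPKM elsewhere.

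Among the targets, Hmox1 had the largest fall. It encodes heme oxygenase 1, which opens the heme ring to biliverdin, carbon monoxide and iron, and lies on chromosome 8 of mm10 from 75093618 to 75100593. It stood at 549.1 and 542.4 RPKM in -R, 34.0 and 25.1 RPKM in +R, and 76.5 and 58.4 RPKM in R+LE. The 3 conditions did not overlap, and -R was far above both others. The fall with RANKL was 18.4-fold, with a log2 fold change of -4.20 (limma, SE 0.18 on the log2 scale, adjusted p = 8.11e-11), and with LE the gene rose by 1.18 on the log2 scale (SE 0.18, adjusted p = 0.000406). In R+LE it was still 8.12-fold below -R (log2 fold change -3.02, adjusted p = 5.82e-09 in limma).

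Prdx1 encodes peroxiredoxin 1, an abundant enzyme that reduces hydrogen peroxide by way of a reactive cysteine, and lies on chromosome 4 from 116685599 to 116700000. It was 863.9 and 885.8 RPKM in -R, 242.5 and 174.3 RPKM in +R, and 607.0 and 476.9 RPKM in R+LE. All R+LE libraries lay between those of the other conditions. Its log2 fold change was -2.09 with RANKL (limma, SE 0.20, adjusted p = 6.38e-07), 1.39 with LE (SE 0.20, adjusted p = 0.000287), and -0.70 in R+LE against -R (adjusted p = 0.0139). The last call was lost without -R replicate 1 (adjusted p = 0.124) or without -R replicate 2 (adjusted p = 0.132 in limma).

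Srxn1 encodes sulfiredoxin, which repairs peroxiredoxins that have been over-oxidised, and lies on chromosome 2 from 152105524 to 152111376. Its level was 63.0 and 65.4 RPKM in -R, 24.6 and 21.2 RPKM in +R, and 80.4 and 62.1 RPKM in R+LE. The -R and R+LE libraries overlapped and the +R libraries lay below both. The log2 fold change was -1.47 with RANKL (limma, SE 0.16, adjusted p = 2.05e-06) and 1.61 with LE (SE 0.16, adjusted p = 7.31e-06). Against -R, R+LE differed by 0.14 on the log2 scale, with a 95% interval from -0.20 to 0.47.

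Txnrd1 encodes cytosolic thioredoxin reductase, a selenoenzyme that uses NADPH to keep thioredoxin reduced, and lies on chromosome 10 from 82859206 to 82897724. It was 105.2 and 130.1 RPKM in -R, 77.5 and 72.9 RPKM in +R, and 157.1 and 135.6 RPKM in R+LE. The 3 conditions did not overlap, and R+LE was the highest. The log2 fold change was -0.64 with RANKL (limma, SE 0.16, adjusted p = 0.00455), a call that was lost without -R replicate 2 (adjusted p = 0.105), and 0.95 with LE (SE 0.16, adjusted p = 0.000988). Between R+LE and -R it was 0.32, with a 95% interval from -0.03 to 0.66 (adjusted p = 0.144 in limma), and leaving out R+LE replicate 2 gave 0.42 (adjusted p = 0.045).

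Nqo1 and Txn1 were the targets that did not pass the test with RANKL. Nqo1 encodes a quinone reductase that converts quinones to hydroquinones in a single step, and lies on chromosome 8 from 107388225 to 107403205. It had 3.26 and 3.87 RPKM in -R, 3.84 and 2.51 RPKM in +R, and 53.0 and 42.7 RPKM in R+LE. Behind these values were 119 to 208 reads in each library without LE, and 2582 and 2009 reads with it. The -R and +R libraries overlapped and both R+LE libraries were far above them. The change with RANKL was -0.16 on the log2 scale (95% interval from -0.54 to 0.21), whereas R+LE was 13.3-fold above +R and 11.9-fold above -R.

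Txn1 encodes thioredoxin, the small disulfide-reducing protein that passes electrons to peroxiredoxins, and lies on chromosome 4 from 57943373 to 57956411. It was 273.3 and 261.2 RPKM in -R, 354.1 and 291.3 RPKM in +R, and 462.8 and 370.4 RPKM in R+LE. The libraries of the 3 conditions did not overlap and stood in that order. Neither step passed the test by itself, with 0.26 for RANKL (95% interval from -0.12 to 0.65) and 0.37 for LE (95% interval from -0.02 to 0.75) on the log2 scale. R+LE against -R passed, at 0.63 (limma, SE 0.18, adjusted p = 0.0138), but not without -R replicate 1 (adjusted p = 0.116) or -R replicate 2 (adjusted p = 0.144). The step with LE passed without R+LE replicate 2, at 0.53 (adjusted p = 0.0426 in limma). The mouse annotation holds a processed pseudogene of Txn1, Txn-ps1, so some reads of this gene could have been split.

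Of the 4 regulators, Mafg and Nfe2l2 fell with RANKL and Keap1 and Bach1 did not pass. Nfe2l2, which spans bases 75675513 to 75704663 of chromosome 2, was 43.8 and 47.3 RPKM in -R, 38.015 and 31.1 RPKM in +R, and 47.5 and 39.9 RPKM in R+LE. The +R libraries were below all others, and -R and R+LE overlapped. Its log2 fold change with RANKL was -0.40 (limma, SE 0.15, adjusted p = 0.0452). That call was lost without -R replicate 1 (adjusted p = 0.125), -R replicate 2 (adjusted p = 0.231) or +R replicate 2 (adjusted p = 0.374), and with a total that left out Rn45s (adjusted p = 0.0764 in limma).

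Keap1, which spans bases 21229730 to 21239332 of chromosome 9, was 13.1 and 13.9 RPKM in -R, 10.9 and 10.4 RPKM in +R, and 12.9 and 14.4 RPKM in R+LE. The +R libraries were again the lowest, and -R and R+LE overlapped. The change with RANKL was -0.33 (limma, SE 0.14, adjusted p = 0.0578), and it stayed between -0.38 and -0.29 when single libraries were left out. It passed with limma's voom on the recovered reads (adjusted p = 0.0282). With a total that left out Rn45s it did not (adjusted p = 0.105 in limma). Of 4693 annotated exon bases of Keap1, 510 are shared with Gm16754 on the opposite strand, and since counting ignored strand, reads of both cannot be separated there.

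Mafg, which encodes the small MAF partner of Nrf2 and BACH1 and lies on chromosome 11 from 120628351 to 120633547, was the regulator that fell most. It was 26.4 and 26.0 RPKM in -R, 13.3 and 13.7 RPKM in +R, and 17.5 and 18.7 RPKM in R+LE, with no overlap between conditions. Its log2 fold change was -0.93 with RANKL (limma, SE 0.13, adjusted p = 3.72e-05) and -0.52 in R+LE against -R (adjusted p = 0.00672). Without -R replicate 1 the second had an adjusted p of 0.0579 in limma.

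Bach1, which spans bases 87698954 to 87733346 of chromosome 16, was 13.0 and 12.9 RPKM in -R, 15.4 and 14.4 RPKM in +R, and 18.9 and 21.8 RPKM in R+LE. The conditions did not overlap, and -R was the lowest and R+LE the highest. The change with RANKL was 0.20 (95% interval from -0.10 to 0.49), and R+LE was 1.55-fold above -R (log2 fold change 0.63, limma, SE 0.14, adjusted p = 0.00226).

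The second question was what LE added to RANKL did to the pathway. With LE, 5 of the 10 members rose and none fell, against 5.19% of all tested genes that rose and 6.86% that fell. The 5 were all targets, in the order Nqo1, Srxn1, Prdx1, Hmox1 and Txnrd1 by size, and the median log2 fold change of the 6 targets was 1.28, against -0.05 for all tested genes. Nqo1 rose by 3.73 (limma, SE 0.18, adjusted p = 5.64e-09) and the other 4 by 0.95 to 1.61. None of the 4 regulators passed, with 0.34 for Nfe2l2 (95% interval from 0.01 to 0.66), 0.34 for Keap1 (0.05 to 0.63), 0.43 for Bach1 (0.14 to 0.73) and 0.41 for Mafg (0.13 to 0.69). Their intervals lay above 0 one gene at a time but the adjusted p-values were 0.200, 0.129, 0.0535 and 0.0593 in limma. When single libraries were left out, the change of Bach1 with LE ranged from 0.33 to 0.53. With the scaling changed to quantile normalization 9 of the 10 members rose, and with limma's voom on the recovered reads all 10 did. Of all 11595 tested genes, 602 rose in the main fit, 841 with quantile normalization and 828 with voom. The count of regulators that rose thus depends on the method, while the direction was upward for all 10 members in every alternative tried.

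Of the 10 members, 7 were higher in R+LE replicate 1 than in replicate 2, against 69.1% of all tested genes. All 6 targets and Nfe2l2 were higher in R+LE replicate 1 than in replicate 2, by 1.16 to 1.31 times, against a median of 1.10 over all tested genes, while Keap1, Bach1 and Mafg were lower in replicate 1, at 0.867 to 0.939 times. In +R the ratio was 1.06 to 1.53 for the targets, against a median of 1.06 over all tested genes. There 9 of the 10 members were higher in replicate 1, against 65.3% of all tested genes. The share of reads on genes also differed between these libraries, and its part in the results was not tested. When single libraries were dropped, the LE response on the log2 scale stayed between 3.47 and 3.998 for Nqo1, 1.42 and 1.79 for Srxn1, 1.15 and 1.62 for Prdx1, 0.97 and 1.40 for Hmox1, and 0.85 and 1.06 for Txnrd1, and all 5 passed each time.

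**Figure D2:**
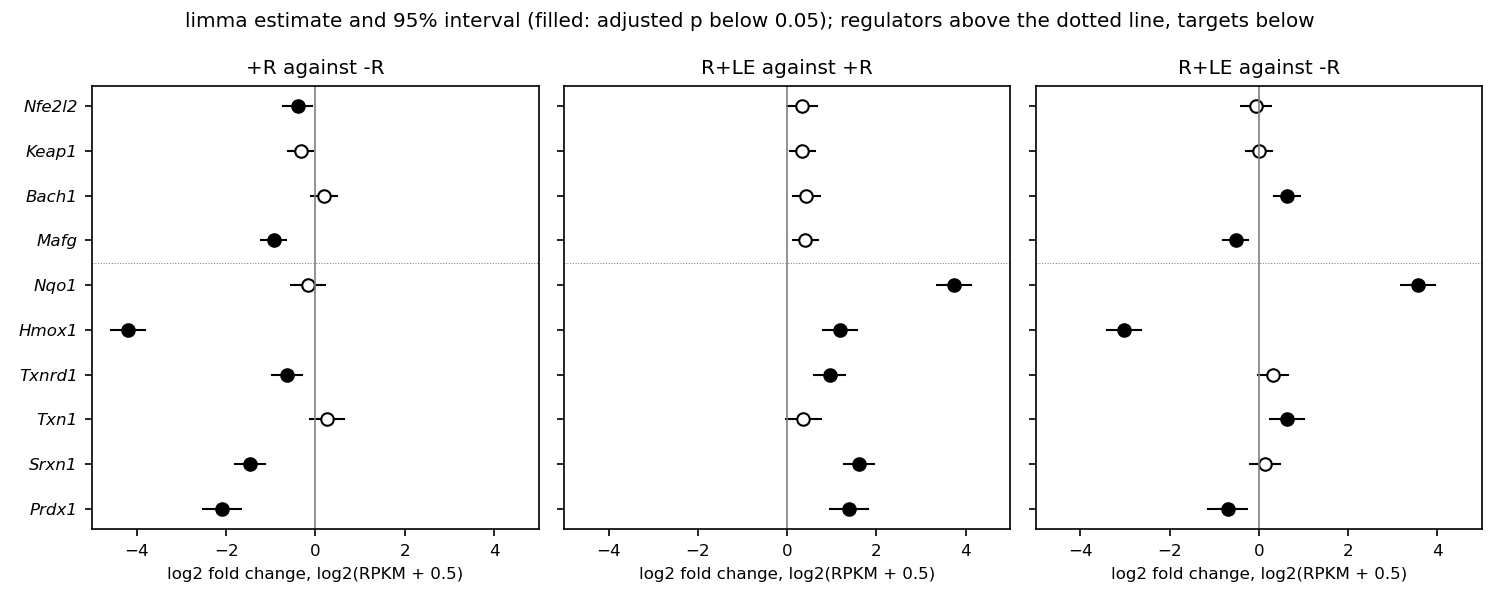
Log2 fold change on the log2(RPKM + 0.5) scale (x axis) of each member (y axis) in the 3 comparisons, with points for the limma estimate, lines for the 95% interval and filled points for an adjusted p-value below 0.05. With LE against RANKL alone, the filled points are 5 targets from 0.95 to 3.73, and the 4 regulators lie from 0.34 to 0.43.

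Against precursors without RANKL, R+LE left the members spread in both directions. In this comparison 3 rose, Nqo1, Txn1 and Bach1, and 3 fell, Hmox1, Prdx1 and Mafg, against 15.3% and 19% of all tested genes. Without -R replicate 1, 3 of the 10 passed. The median over the 10 was 0.07 on the log2 scale, with a range from -3.02 for Hmox1 to 3.57 for Nqo1, against a median of -0.01 over all tested genes. The comparisons of LE with +R and of +R with -R use the same +R libraries, so a low value there would appear as a fall and then as a rise. The values of R+LE against -R do not use those libraries.

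The order of levels within the pathway also changed. In -R it ran Prdx1, Hmox1, Txn1, Txnrd1, Srxn1, Nfe2l2, Mafg, Keap1, Bach1 and Nqo1, from 874.8 down to 3.56 RPKM (means, n = 2), and no neighbours overlapped. In +R, Txn1 led at 322.7 RPKM, ahead of Prdx1 at 208.4 RPKM, and Hmox1 had dropped from the second to the fifth place, where its libraries overlapped those of Nfe2l2. In R+LE, Prdx1 led again at 541.9 RPKM, Hmox1 overlapped Srxn1, and Nqo1 had moved from last to the sixth place, where it overlapped Nfe2l2.

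Since RPKM is per length, each repressor could be set against Nfe2l2 within a library. The ratio of Bach1 to Nfe2l2 was 0.297 and 0.273 without RANKL, 0.406 and 0.464 with RANKL alone, and 0.398 and 0.547 with LE as well. Both -R libraries were below the other 4, and +R and R+LE overlapped. The mean log2 ratio was 0.60 higher in +R and 0.69 higher in R+LE than in -R (exact permutation test, two-sided, p = 0.33 for both, the smallest that 2 against 2 libraries allow). The ratio of Keap1 to Nfe2l2 was 0.299 and 0.294 without RANKL, 0.286 and 0.3329 with RANKL alone, and 0.271 and 0.361 with LE as well, and all 3 conditions overlapped. Its differences were at most 0.08 on the log2 scale.

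**Figure D3:**
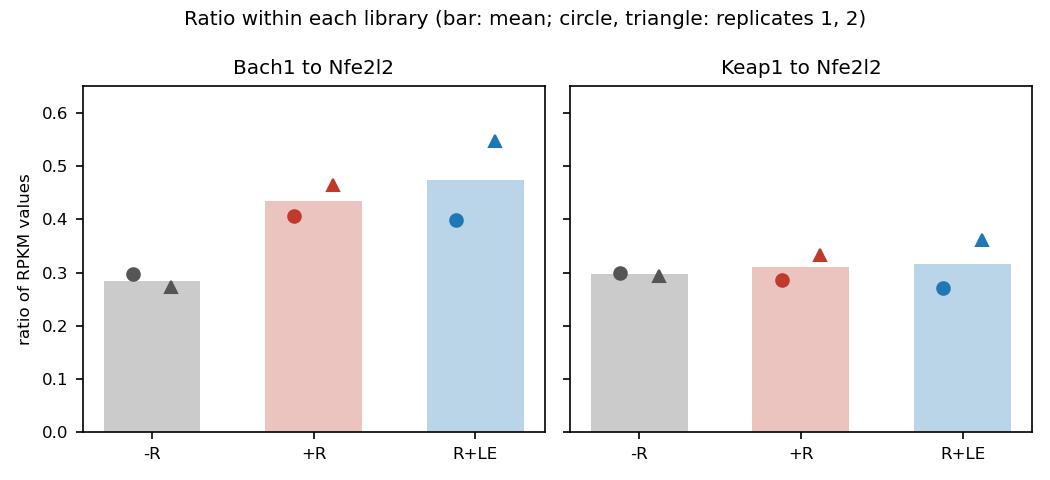
Ratio of the RPKM of Bach1 (left) and Keap1 (right) to that of Nfe2l2 within each library (y axis, from 0) by condition (x axis), with bars for means, circles for replicate 1 and triangles for replicate 2. The Bach1 ratio is below 0.30 in both -R libraries and between 0.398 and 0.547 in the other 4, and the Keap1 ratio lies between 0.271 and 0.361 in all 6.

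The third question was whether other genes of the pathway and their relatives moved like the members. It was covered by 54 other genes in 5 lists, all present in the table, of which 51 were tested. Relatives of the members such as Hmox2, Txn2 and Txnrd2 are among them, so pooled counts are not counts of Nrf2 targets alone. Bach2 and Nfe2l3, both relatives of the regulators, and Gsta4, a glutathione transferase, lay below the filter. The lists and the members were chosen with earlier results of these data known. Of the 51 genes, 29 fell and 6 rose with RANKL, against 21.5% and 23.9% of all tested genes. With LE 22 rose and 1 fell, against 5.19% and 6.86%. In R+LE against -R, 15.3% of all tested genes rose and 19% fell. These shares are the background for each list below. The 6 rises with RANKL became 1 without -R replicate 1 and 2 without -R replicate 2 or +R replicate 1, the 22 rises with LE became 14 without the filter on low values, and the 1 fall with LE became 2 without +R replicate 2 or R+LE replicate 1.

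Of 10 genes for glutathione and NADPH supply, 7 fell with RANKL and 7 rose with LE, with list medians of -0.99 and 0.9996 on the log2 scale. The largest change with LE was that of Gclm, the modifier subunit of the enzyme that starts glutathione synthesis, at 104.9 and 103.5 RPKM in -R, 14.9 and 15.2 RPKM in +R, and 110.8 and 82.0 RPKM in R+LE (log2 fold change with LE 2.62, limma, SE 0.16, adjusted p = 8.73e-08). Pgd and Me1, which both make NADPH, rose by 1.18 and 1.17 with LE (adjusted p = 0.000573 and 3.94e-05 in limma). In R+LE against -R, 1 of the 10 rose, 1 fell and 8 did not pass. None rose without either -R replicate or R+LE replicate 1, whereas 3 rose without R+LE replicate 2 and 4 with voom.

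Of 8 genes for heme and iron handling, 7 fell with RANKL and 5 rose with LE, with medians of -1.71 and 0.88, and 6 stayed below -R in R+LE at the same threshold. Without any 1 of the -R or +R replicates 3 of the 8 rose with LE, and without the filter on low values 2 did. The 6 below -R became 3 without either -R replicate. Blvrb, a biliverdin reductase, went from 125.6 and 105.3 RPKM without RANKL to 38.8 and 43.0 RPKM with RANKL alone. With LE it was 120.4 and 96.1 RPKM (log2 fold change with LE 1.39, limma, SE 0.16, adjusted p = 3.84e-05). Blvra, the other biliverdin reductase gene of the list, had a log2 fold change with LE of 0.02 (95% interval from -0.30 to 0.34). Ftl1, the ferritin light chain, rose by 1.02 with LE (adjusted p = 0.0193 in limma) but did not pass when a -R or +R library was left out. Slc48a1, a heme transporter, averaged 19.0 RPKM with RANKL alone and 39.0 RPKM with LE (limma, adjusted p = 0.000598). Hmox2, the constitutive heme oxygenase, was 64.4 and 64.9 RPKM in the +R libraries and 73.7 and 53.1 RPKM in those of R+LE, which lay on both sides, with a log2 fold change of -0.05 (95% interval from -0.40 to 0.30), below the interval of Hmox1, which began at 0.80.

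Of 11 tested detoxifying genes, 7 fell and 1 rose with RANKL, and 9 rose with LE, with medians of -0.80 and 0.92. The 9 rises with LE became 6 without the filter on low values and 10 with voom. In R+LE against -R, 4 of the 11 rose and 2 fell. Gsta3, a glutathione transferase of a family among whose members reads could be split, was covered by 52 and 62 reads without RANKL, by 6 and 2 with RANKL alone, and by 264 and 183 with LE. Mgst1, a membrane-bound glutathione transferase, was 37.2 and 35.6 RPKM in -R, 2.38 and 2.95 RPKM in +R, and 14.2 and 9.67 RPKM in R+LE, so that LE raised it by 1.96 (adjusted p = 2.56e-06 in limma) and left it 1.59 below -R. Osgin1, a gene induced by oxidative stress, rose by 1.65 with LE (adjusted p = 3.53e-06 in limma).

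Of 12 other genes of the thioredoxin system, 4 rose and 4 fell with RANKL, against 23.9% and 21.5% of all tested genes. With LE 1 rose and none fell, against 5.19% and 6.86%, and the list median was -0.09 on the log2 scale. The rises with RANKL were those of Prdx2, Prdx3, Prdx4 and Txn2, by 0.51 to 0.55, and none of them passed without -R replicate 1, -R replicate 2 or +R replicate 1. Prdx5 fell with RANKL by 1.75 and Glrx, a glutaredoxin, by 2.02 on the log2 scale, and both falls passed in all 17 alternatives. The count of falls went from 4 to 2 without either -R replicate or +R replicate 2. The one that rose with LE was Glrx, by 0.59 (adjusted p = 0.0355 in limma), a call that was lost without either -R replicate, +R replicate 2 or R+LE replicate 1. The other peroxiredoxin genes, named after their values were seen because they complete the family of Prdx1, had log2 fold changes with LE of -0.29 for Prdx2, -0.31 for Prdx3, 0.14 for Prdx4, 0.28 for Prdx5 and 0.23 for Prdx6. Their 95% intervals reached at most 0.64, below the interval of Prdx1, which began at 0.96, though Prdx5 passed under quantile normalization and without R+LE replicate 2. The other thioredoxin reductases had log2 fold changes with LE of -0.19 for the mitochondrial Txnrd2 (95% interval from -0.51 to 0.13) and -0.13 for Txnrd3 (-0.49 to 0.24), below the interval of Txnrd1, which began at 0.61. The mitochondrial thioredoxin Txn2 was 75.6 and 60.0 RPKM in the +R libraries and 54.5 and 40.8 RPKM in those of R+LE. Its log2 fold change with LE was -0.51 (adjusted p = 0.0657 in limma). This fall passed in 6 of 17 alternatives, among them quantile normalization and voom, and stayed between -0.71 and -0.30 in all 17. The differences between these genes and the members were not tested themselves.

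Of 10 tested genes among 12 further regulators, 4 fell and 1 rose with RANKL, against 21.5% and 23.9% of all tested genes. With LE 1 of the 10 fell and none rose, against 6.86% and 5.19%. Sqstm1, at 0.44 on the log2 scale with LE (adjusted p = 0.111 in limma), rose under quantile normalization and under voom. In each of these settings it was the only 1 of the 10 to rise. Without +R replicate 2, 2 of them fell with RANKL, and without R+LE replicate 2, 1 rose with LE. The one that fell with LE was Maff, a small MAF related to Mafg, at 1.20 and 1.51 RPKM in -R, 2.47 and 2.67 RPKM in +R, and 1.18 and 0.72 RPKM in R+LE. Its log2 fold change was 0.73 with RANKL (limma, SE 0.20, adjusted p = 0.00733) and -1.10 with LE (SE 0.20, adjusted p = 0.00169). Maff and Mafg therefore moved in opposite directions with RANKL. Without the filter on low values neither Maff call passed, and the gene had 43 to 160 reads in each library. The rise with RANKL was lost without -R replicate 1.

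**Figure D4:**
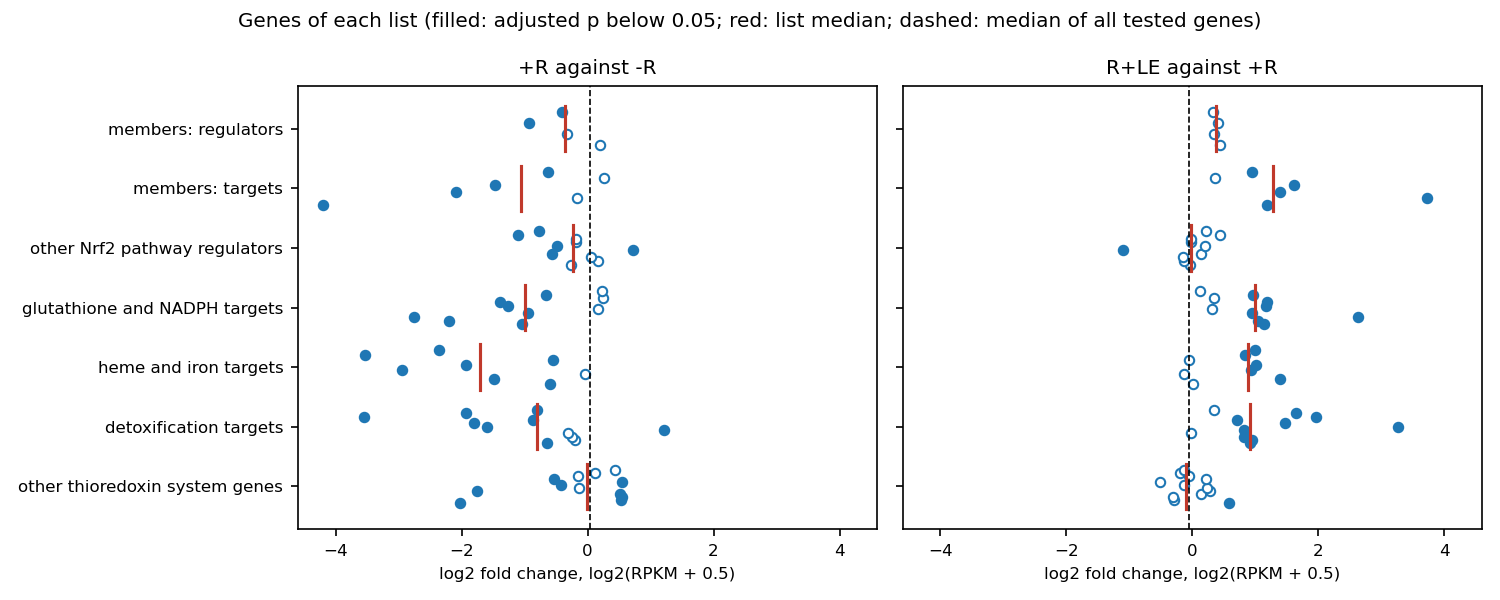
Log2 fold change on the log2(RPKM + 0.5) scale (x axis) of each tested gene in the lists (y axis) with RANKL (left) and with LE (right), where filled points have an adjusted p-value below 0.05, red bars are list medians and the dashed line is the median of all tested genes. With LE the medians of the glutathione and NADPH, heme and iron, and detoxification lists lie from 0.88 to 0.9996, and those of the other regulators and the other thioredoxin genes at -0.02 and -0.09.

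For Nqo1 and Hmox1, the genes with the most similar pattern were taken by Pearson's r of log2(RPKM + 0.5) over the 6 libraries, which share the 3 conditions, so high values are common. Nearest to Nqo1 were Il18rap, Adh7 and 1700071M16Rik (r between 0.989 and 0.995), and 24 genes had r above 0.95. Adh7, an alcohol dehydrogenase gene, averaged 0.138 and 0.142 RPKM in -R and +R but 2.58 RPKM in R+LE. Adh7 and Il18rap passed the filter on low values only through R+LE. Nearest to Hmox1 were Atf3, Gm44805 and Apoc2 (r of 0.999 for all 3), among 1016 genes with r above 0.95. Atf3, a stress-induced transcription factor gene, averaged 49.9 RPKM in -R and 2.21 and 5.32 RPKM in +R and R+LE. Gm44805 passed the filter only through -R. Because these genes were chosen for their likeness to a member in the same 6 libraries, their levels follow from that choice.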

How the data were processed

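RNA-seq of 6 libraries, 2 for each of 3 conditions, was analysed, grouped by the sample titles. The authors aligned reads to mm10 (TopHat in the study's methods, HISAT2 in the submitters' processing notes, versions not given in the sources used here) and counted exon reads on either strand with HOMER, 1 transcript for each gene. They deposited RPKM, in columns titled FPKM. Symbols that a spreadsheet had turned into dates, 26 in all, were restored from transcript identifiers.

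Whole reads were recovered from RPKM and transcript length, and 100% of the values checked fell on whole reads within rounding plus 0.02 of a read. Intervals and fits do not use them, except voom. log2(RPKM + 0.5) of the 11595 genes that averaged 0.5 RPKM or more was fitted with limma 3.58.1 in R 4.3.3 (3 groups, empirical Bayes with a variance trend, Benjamini-Hochberg over all tested genes). A gene passed at an adjusted p below 0.05, and "rose" and "fell" mean that. The study's own cut-off also asked for 2-fold, which is an alternative here. Scripts were tested on simulated data. Python 3.11.15 and scipy 1.17.1 were used for the rest.

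Members and lists were chosen with earlier results of these data known. Named genes are the 10 members, up to 3 genes for each list with the largest change with LE among those that passed, the nearest 3 genes of Nqo1, Hmox1 and Nfe2l2 by r (those of Nfe2l2 are not reported here), and markers. Others, such as Blvra, Hmox2, Prdx2 to Prdx6, Txn2, Txnrd2 and Txnrd3, were named after their values were seen. Alternatives were pseudocounts of 0.1 and 1, other filters, scalings and fits, voom, and each library left out. Sequences were taken from RefSeq (GRCm38.p6).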

Additional observations from a re-analysis of the deposited data

How the results depend on the processing

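With the pseudocount, filter, variance trend, scaling, fit and libraries varied in 17 ways, 460 of 510 values of the members' log2 fold changes kept their direction and their side of the threshold, 14 lost the threshold, 29 gained it and 7 turned direction. The calls of Nqo1, Hmox1, Srxn1, Prdx1 and Txnrd1 with LE against RANKL alone passed in all 17. Of the 10 members, 6 passed with RANKL, 5 with LE and 6 in R+LE against -R. The shares of all tested genes are given with each comparison above. With 2-fold also required, 3 members passed with RANKL, 4 with LE and 2 in R+LE against -R. The share of all tested genes was not counted at that cut-off, so these counts have no background beside them. The member lost with LE was Txnrd1, at 1.94-fold. Of all 11595 tested genes, 602 rose with LE in the main fit, 841 under quantile normalization and 828 under voom on recovered reads. With LE, 9 of the 10 members passed under quantile normalization and 10 under voom, and the cause was not tested. Without single libraries the counts ranged from 4 to 7 with RANKL, from 5 to 6 with LE and from 3 to 7 in R+LE against -R, with the lowest, 3, without -R replicate 1.

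The replicate numbers of the labels were checked for pairing. The deviations of replicate 1 from replicate 2 over 11595 genes had correlations of -0.05 between -R and +R, 0.11 between -R and R+LE and 0.25 between +R and R+LE, so the numbers were not taken as pairs. With the replicate block, 7, 7 and 6 members passed in the 3 comparisons, since Keap1 then passed with RANKL and Bach1 and Mafg with LE. Of all tested genes, 756 rose and 1036 fell with LE under the block, against 602 and 795 without it.

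The values that turned direction were all small and had not passed. In R+LE against -R, Nfe2l2 (-0.06) became 0.0713 under quantile normalization and 0.0112 with Rn45s left out of the totals. Without single libraries it ranged from -0.19 to 0.0609, Keap1 (0.01) from -0.0675 to 0.0907 and Srxn1 (0.14) from -0.0481 to 0.32. Nqo1 with RANKL (-0.16) ranged from -0.43 to 0.099. The differences of the log2 ratios to Nfe2l2 rested on single libraries too. For Bach1 in R+LE against +R the difference was 0.10, with a range without single libraries from -0.13 to 0.32. For Keap1 it was 0.07 with RANKL (range from -0.0415 to 0.18), 0.01 with LE (range from -0.20 to 0.21, and -0.00018 with a pseudocount of 1) and 0.08 in R+LE against -R (range from -0.13 to 0.28).

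With 2 libraries a group, the smallest exact permutation p is 0.33. Depth limited the members little, with at least 119 reads on each in every library, but 3 list genes lay below the filter.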
